A study of Mus musculus with 29 samples.

Results

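Ppargc1a, Ppargc1b, Ppara, Ppard, Pparg, Esrra, Esrrg, Nrf1 and Tfam encode the coactivators, nuclear receptors and downstream factors that set the oxidative metabolism of the heart. They were taken by gene symbol from the series' table of mRNA read counts and make up 9 of the 23420 genes counted. The rule used no measured value, but earlier results of these data were known when the members were chosen. All 9 passed the filter on low counts that left 13765 genes for testing. Their levels were followed across 8 groups of mouse hearts, 4 genotypes that were either unstressed or studied 4 weeks after TAC (transverse aortic constriction), an operation that tightens the aortic arch and makes the left ventricle pump against a higher pressure.

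The mice had a C57BL/6J background and were labelled as 12 weeks old in both conditions. Wild-type hearts gave 4 unstressed and 4 TAC libraries. Postnatal cardiac PKCdelta ablation gave 3 and 3, germline PKCepsilon knockout gave 3 and 4, and the combined knockout of both kinases gave 4 and 4, so that every count of samples below is a count of libraries. PKCdelta (gene Prkcd) and PKCepsilon (gene Prkce) belong to the protein kinases C that do not need calcium. The construct that removes PKCdelta from the heart is not given in the sources used here. The TAC hearts were set against unstressed hearts, so a TAC effect includes whatever the operation itself does.

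PGC-1alpha (Ppargc1a) and PGC-1beta (Ppargc1b) do not bind DNA themselves. They are recruited by transcription factors, among them the peroxisome proliferator-activated receptors (PPARs), which pair with retinoid X receptors and switch on genes of fatty acid uptake and oxidation, and the estrogen-related receptors (ERRs), orphan nuclear receptors that bind genes of the citric acid cycle and the respiratory chain. NRF1 is a transcription factor for nuclear genes of respiration and mitochondrial DNA upkeep, one of which is Tfam, whose protein packages and transcribes mitochondrial DNA.

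RefSeq promoter sequences of build GRCm38.p6 were taken by symbol for 8 of the 9 members. No promoter of Ppargc1b was examined, so the matches below say nothing about that member. The 8 members gave 14 promoters, each running from 250 bases before to 50 bases after an annotated start site. Those of Ppargc1a, Ppara, Esrrg and Tfam are shown because they were the only 4 of the 14 that held a match to a searched motif, and because Ppargc1a, Ppara and Esrrg fell together in 3 of the 4 genotypes after TAC. Capitals mark the match. The Ppargc1a promoter (chr5:51567676-51567975, minus strand) held ACGTCA, part of the element bound by cyclic AMP response factors, 50 bases before the start. That of Ppara (chr15:85735526-85735825, plus strand) held the NRF1 motif, GCGCA and GCGC with 1 base of any kind between them, 31 bases before the start, on both strands. Esrrg has 4 annotated starts in the table, and the promoter of its first (chr1:187608756-187609055, plus strand) held the MEF2 motif, CTA and TAG with 4 bases of any kind between them, 22 bases before it. The Tfam promoter (chr10:71237995-71238294, minus strand) held CCGGAAG, the motif of GABPA, 47 bases before the start.
Ppargc1a: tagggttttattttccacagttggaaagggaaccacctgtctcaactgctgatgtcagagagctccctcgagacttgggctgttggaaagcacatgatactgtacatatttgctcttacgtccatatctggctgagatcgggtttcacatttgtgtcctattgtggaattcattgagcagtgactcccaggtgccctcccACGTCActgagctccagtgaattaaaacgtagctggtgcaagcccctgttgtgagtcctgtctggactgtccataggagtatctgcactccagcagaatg
Ppara: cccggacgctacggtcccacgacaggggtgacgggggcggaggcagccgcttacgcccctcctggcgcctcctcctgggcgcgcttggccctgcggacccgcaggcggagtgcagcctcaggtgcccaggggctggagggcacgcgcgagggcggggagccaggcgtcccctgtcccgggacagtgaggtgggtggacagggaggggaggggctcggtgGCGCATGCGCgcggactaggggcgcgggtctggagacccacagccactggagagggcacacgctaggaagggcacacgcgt
Esrrg: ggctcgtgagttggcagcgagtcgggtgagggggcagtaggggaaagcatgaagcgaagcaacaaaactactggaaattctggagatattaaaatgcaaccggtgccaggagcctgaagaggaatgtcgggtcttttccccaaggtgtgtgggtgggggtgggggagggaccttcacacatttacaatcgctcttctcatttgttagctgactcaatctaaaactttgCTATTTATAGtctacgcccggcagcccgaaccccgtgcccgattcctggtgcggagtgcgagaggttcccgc
Tfam: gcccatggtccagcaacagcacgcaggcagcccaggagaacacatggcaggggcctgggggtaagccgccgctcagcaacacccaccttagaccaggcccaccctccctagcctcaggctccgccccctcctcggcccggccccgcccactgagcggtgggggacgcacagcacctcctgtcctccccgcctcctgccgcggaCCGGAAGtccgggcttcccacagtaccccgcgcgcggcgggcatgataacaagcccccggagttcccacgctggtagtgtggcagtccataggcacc
Over all 32851 promoters of the same table and length, ACGTCA was present in 7.51%, the NRF1 motif in 4.6%, the MEF2 motif in 3.69% and CCGGAAG in 8.86%, on either strand. The ERR motif TNAAGGTCA (1.28% of all promoters) and the direct repeat bound by PPARs, AGGTCA and again AGGTCA with 1 base between them (0.04%), were not among the letters of the 14 member promoters. The motifs did not overlap each other in the promoters shown. These matches describe sequence only.

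Reads assigned to genes numbered 10523709 to 17314739 per library. In 2 libraries Prkce went against the label or stood apart from the group. The library labelled combined knockout, TAC, replicate 2 had a Prkce level of 31.5 CPM (gene counts scaled to the library total after TMM normalization) where the other 3 of its group had 8.21 to 11.0, and wild-type TAC replicate 2 had 24.0 where the others of its group had 33.3 to 42.9, so results that rest on TAC libraries were also computed without both. Prkce was otherwise 6.59 to 10.8 CPM in the PKCepsilon knockout and in the unstressed combined knockout, against 46.9 to 52.9 in unstressed wild type. Prkcd ranged from 16.3 to 18.7 CPM in unstressed PKCdelta-ablated and from 11.4 to 16.4 in unstressed combined knockout libraries, against 13.4 to 15.9 in wild type. After TAC it was 18.9 ± 1.66 (SD, n = 3), 20.6 ± 4.12 (n = 4) and 23.1 ± 3.51 CPM (n = 4) in the same order, lower on average in both ablated genotypes, with most of the transcript count remaining. The part of the gene that is deleted is not given in the sources used here, so a count over the whole gene does not check that label. Of 23 libraries labelled male, 10 had less than 1 CPM of 4 summed Y-linked transcripts, 4 of 6 labelled female had more, and 16 of all 29 libraries had over 1 CPM of both Xist and those transcripts. All 14 unstressed libraries are labelled male, and the 6 labelled female are TAC libraries (1 of 4 wild type, 2 of 3 PKCdelta, 3 of 4 combined). The sex label and TAC are thus partly confounded. In the PKCdelta ablation the Y-linked sum was 0, 0 and 0.076 CPM unstressed, and 35.7, 31.6 and 24.7 CPM after TAC. In that genotype the effect of TAC therefore cannot be told apart from that of sex as read from these transcripts. The share of counts taken by Rn45s, a ribosomal RNA precursor, was 9.90% to 14.06% in unstressed and 4.51% to 8.59% in TAC libraries. The share of reads aligned to several places was 8.01% to 9.57% in unstressed and 10.97% to 14.16% in TAC libraries. Both shares therefore moved with the condition in every genotype, and their part in the TAC results was not tested.

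Scaled to library depth and to kilobases of exon (RPKM), Esrra was the most abundant of the 9 in unstressed wild-type hearts, at 74.3 ± 4.78 RPKM (SD, n = 4). Ppara followed at 32.5 ± 3.69, Ppargc1b at 25.8 ± 3.94, Ppard at 21.1 ± 2.33 and Ppargc1a at 16.4 ± 1.96 RPKM. The lower levels were those of Esrrg (6.90 ± 0.48), Pparg (4.38 on average, from 2.97 to 6.09), Tfam (3.97 ± 0.292) and Nrf1 (2.68 ± 0.177 RPKM). PPARalpha, the receptor that drives fatty acid oxidation in heart muscle, was thus the most abundant PPAR message, and PPARgamma, best known from fat cells, the least. With the length of the longest transcript in place of all exons, Nrf1 came to 4.05 RPKM, level with Tfam at 4.18, so the order of those 2 rests on the length used. All levels below are CPM, which compares a gene between libraries and not with other genes.

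**Figure D1:**
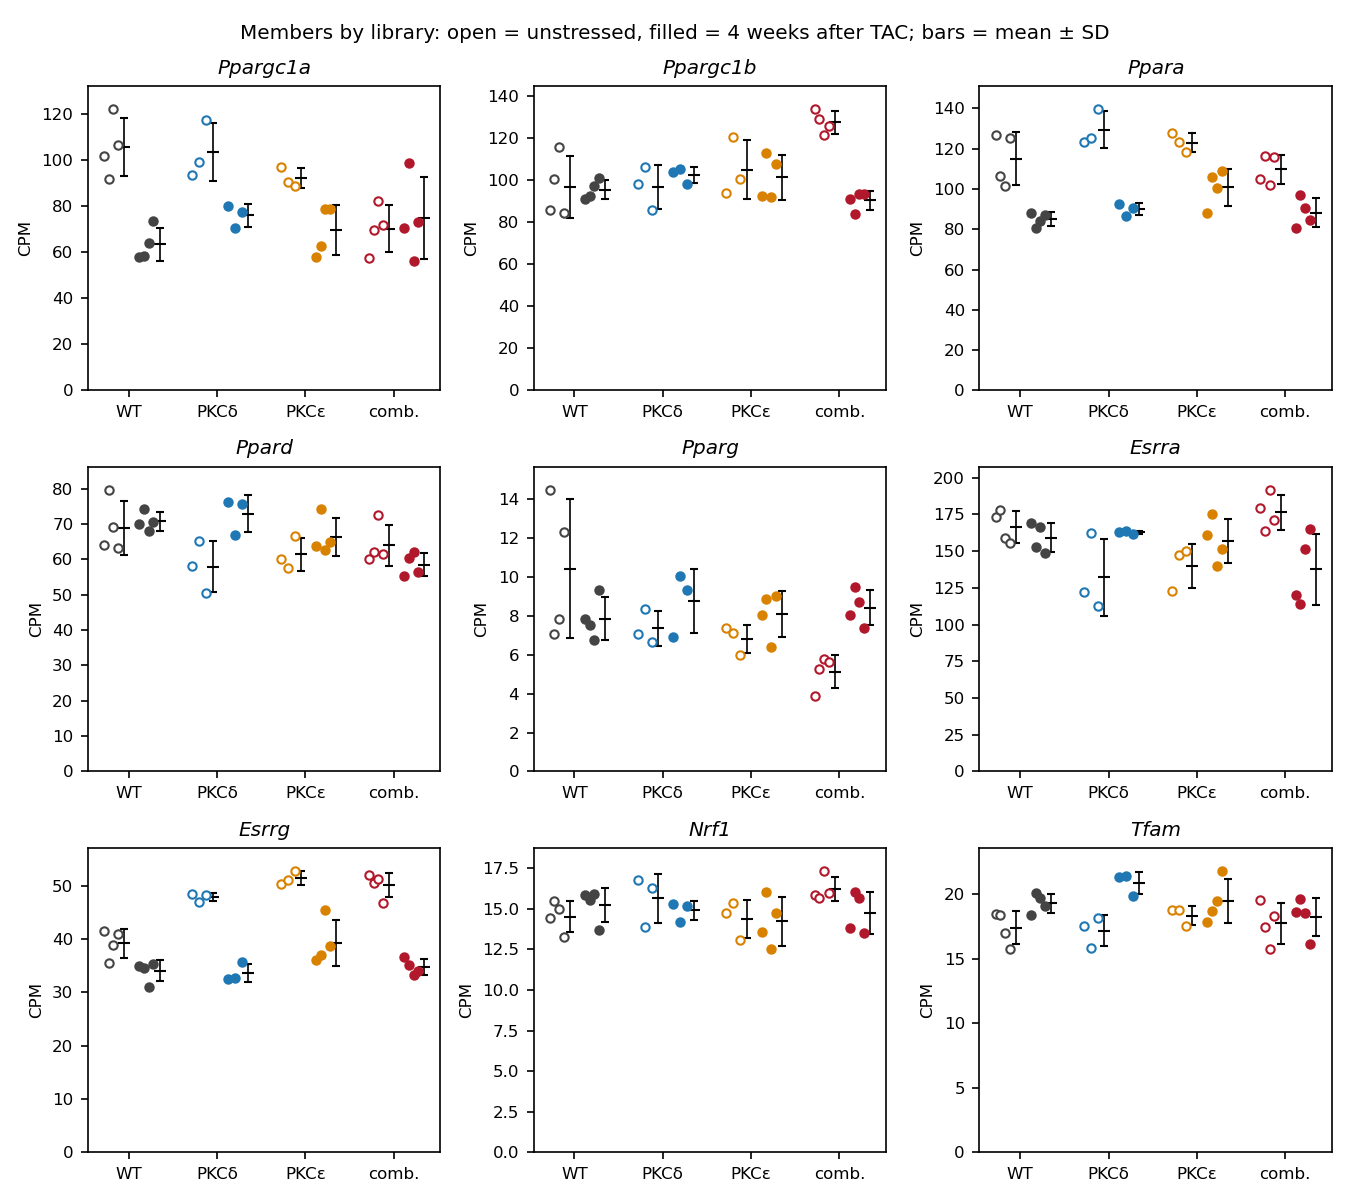
Level of each member in every library, in CPM on an axis from 0, by genotype (WT, wild type; PKCδ, PKCdelta ablation; PKCε, PKCepsilon knockout; comb., combined knockout), with open points for unstressed and filled points for TAC libraries and bars for mean ± SD. Ppara lies lower after TAC in each genotype, Pparg is lowest in the unstressed combined knockout, and Nrf1 shows little movement.

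Each comparison was tested across all 13765 genes with edgeR's quasi-likelihood test, and a gene was called at a Benjamini-Hochberg adjusted p below 0.05 (written here as edgeR adjusted p). TAC called 3 of the 9 members in wild type, where 35.7% of all genes were called. In the PKCdelta ablation it called 5 of 9, against 26.9% of all genes. In the PKCepsilon knockout it called 3 of 9, against 28.9%, and in the combined knockout 5 of 9, against 43.8%. In unstressed hearts, 1 member differed from wild type in the PKCdelta ablation (5.37% of all genes), 1 in the PKCepsilon knockout (3% of all genes) and 4 in the combined knockout (29.2%). After TAC the counts were 0 for the PKCdelta ablation (0% of all genes), 0 for the PKCepsilon knockout (0.0436%) and 1 for the combined knockout (6.76%). For the PKCdelta ablation after TAC, edgeR called 0 genes of any kind, with 789 at an unadjusted p under 0.05, and DESeq2 called 1. The TAC effect itself differed from that of wild type for 0 members in the PKCdelta ablation (1.27% of all genes), 0 in the PKCepsilon knockout (0.0363%) and 4 in the combined knockout (25.1%). With 9 members these counts stand for few genes, and none was tested against its background. The unstressed comparison of the combined knockout and its difference of TAC effects share the unstressed combined and wild-type libraries, and the latter count was 1 with only libraries labelled male.

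Ppargc1a (chr5:51454249-52115853, minus strand, RefSeq GRCm38.p6), the inducible coactivator, measured 102, 92.1, 123 and 107 CPM in the 4 unstressed wild-type libraries and 57.9, 58.3, 64.1 and 73.5 CPM after TAC. The highest TAC value lay under the lowest unstressed value. Here and below, groups whose libraries do not overlap are described without a test. The share of all genes with such groups is not given beside them. TAC called 26.9% to 43.8% of all genes, so groups apart are not read as particular to the members. Ppargc1a fell to 0.6 times its level, a log2 fold change of -0.74 ± 0.14 (SE; edgeR adjusted p = 1.6e-04). In the PKCdelta ablation it went from 93.8, 99.3 and 118 to 80.3, 70.5 and 77.6 CPM, and in the PKCepsilon knockout from 97.0, 90.8 and 88.9 to 57.9, 62.7, 79.1 and 78.8 CPM. Neither pair of groups overlapped, and the log2 fold changes were -0.45 ± 0.16 (edgeR adjusted p = 0.0351) and -0.41 ± 0.15 (edgeR adjusted p = 0.0379). These 2 calls were near the threshold. The first was lost without PKCdelta unstressed replicate 2 or 3 or any of the 3 PKCdelta TAC libraries, at edgeR adjusted p of 0.0509 to 0.176. The second was lost without any of the 3 PKCepsilon unstressed libraries or TAC replicate 1 or 2, at 0.0675 to 0.126. Both were also lost with the closest replicate pairs summed (0.111 and 0.126) and with no filter on low counts (0.0721 and 0.0718). With only libraries labelled male the first effect was -0.36.

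The combined knockout started lower. Its unstressed libraries held 57.6, 69.7, 82.5 and 71.7 CPM of Ppargc1a, all below the 92.1 CPM of the lowest unstressed wild-type library, and the difference was -0.59 ± 0.14 (log2, edgeR adjusted p = 0.00205). After TAC the combined knockout held 70.7, 99.1, 56.3 and 73.1 CPM, which overlapped both its own unstressed libraries and wild type after TAC. Its log2 fold change with TAC was 0.09 ± 0.14 (95% interval -0.19 to 0.37; edgeR adjusted p = 0.635), with a lower bound above the wild-type estimate of -0.74. The difference between the TAC effects of the combined knockout and wild type was 0.82 ± 0.19 (edgeR adjusted p = 0.003). The library with the doubted label was the highest of the combined TAC group, at 99.1 CPM. Without both doubted libraries the TAC effect in the combined knockout was -0.08 ± 0.13 and the difference 0.61 ± 0.18 (edgeR adjusted p = 0.0174). With only libraries labelled male, which leaves 1 combined TAC library, it was 0.49 ± 0.21 (edgeR adjusted p = 0.17). Over the 8 groups, mean Ppargc1a ran from 106 ± 12.7 CPM (SD, n = 4) in unstressed wild type to 63.5 ± 7.28 (n = 4) in wild type after TAC. In that order only the step between the unstressed PKCepsilon knockout and the PKCdelta ablation after TAC exceeded the larger SD of its neighbours. The combined TAC libraries, from 56.3 to 99.1 CPM, overlapped the groups on both sides of that step.

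Ppargc1b (chr18:61291445-61400756, minus strand), the related coactivator, behaved otherwise. In wild type it measured 85.6, 100.5, 116 and 84.3 CPM unstressed and 91.0, 92.1, 96.9 and 101 after TAC, ranges that overlapped, with a log2 fold change of -0.02 ± 0.09 (edgeR adjusted p = 0.908). The 2 single ablations gave 0.08 ± 0.10 and -0.05 ± 0.10, neither called. The unstressed combined knockout, at 134, 129, 121 and 125 CPM, was above every library of every other group and 0.40 ± 0.09 higher than wild type (log2, edgeR adjusted p = 0.00113). After TAC it held 91.0, 83.8, 93.3 and 93.3 CPM. This was a fall to 0.709 times the unstressed level (-0.50 ± 0.09, edgeR adjusted p = 4.8e-05) and a difference from the wild-type TAC effect of -0.48 ± 0.13 (edgeR adjusted p = 0.00638). Without both doubted libraries the difference was -0.47 ± 0.14 (edgeR adjusted p = 0.0167), and with only libraries labelled male -0.41 ± 0.19 (edgeR adjusted p = 0.19). So the 2 PGC-1 coactivators differed from wild type in opposite directions in the unstressed combined knockout, Ppargc1a lower and Ppargc1b higher. After TAC neither passed the test against wild type, with 95% intervals of -0.04 to 0.52 and -0.26 to 0.11. Among the other 7 groups the order of mean Ppargc1b, from 105 to 90.4 CPM, held steps within the larger SD of its neighbours, except the last, from wild type to the combined knockout after TAC.

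Ppara (chr15:85734910-85806851, plus strand) encodes the PPAR that answers to fatty acids in heart muscle. It fell in all 4 genotypes. Unstressed wild-type libraries held 127, 106, 101 and 125 CPM and TAC libraries 88.3, 80.5, 84.1 and 87.1, without overlap, a fall to 0.738 times (-0.44 ± 0.08, edgeR adjusted p = 5.7e-05). In the PKCdelta ablation 123, 125 and 139.9 CPM became 92.4, 86.5 and 90.7, the widest gap of the 4 genotypes (-0.53 ± 0.09, edgeR adjusted p = 6.2e-05). The PKCepsilon knockout went from 128, 123 and 118 to 87.9, 106, 101 and 109 CPM (-0.29 ± 0.08, edgeR adjusted p = 0.00901). The combined knockout went from 105, 116, 102 and 116 to 80.7, 96.9, 90.5 and 84.7 CPM (-0.32 ± 0.08, edgeR adjusted p = 0.00127). All 4 pairs of groups were apart. The combined call was lost with only libraries labelled male (edgeR adjusted p = 0.115). No genotype differed from wild type in Ppara level or in its TAC effect by the test. Levels with a 95% interval above 0 were those of the PKCepsilon knockout after TAC and the unstressed PKCdelta ablation. They were 0.25 ± 0.08 (0.09 to 0.40; edgeR adjusted p = 0.202) and 0.17 ± 0.08 (0.0025 to 0.34; edgeR adjusted p = 0.239). The other level differences had intervals that spanned 0. The differences of the TAC effect had 95% intervals of -0.33 to 0.15 (PKCdelta), -0.08 to 0.38 (PKCepsilon) and -0.10 to 0.34 (combined), so changes of up to those sizes remain possible. In the order of means the 4 unstressed groups lay above the 4 TAC groups, and only the step from the PKCepsilon knockout to the PKCdelta ablation after TAC exceeded the larger SD.

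Ppard (chr17:28232754-28301469, plus strand) encodes the broadly expressed PPARdelta. In wild type it stood at 64.1, 79.8, 69.1 and 63.1 CPM unstressed and 70.2, 74.3, 67.9 and 70.7 after TAC, with overlap (0.04 ± 0.08, edgeR adjusted p = 0.767). The PKCdelta ablation held 58.2, 65.1 and 50.6 CPM unstressed, the group with the lowest mean, and 76.2, 67.0 and 75.8 after TAC, the group with the highest. These 2 groups did not overlap, and Ppard rose 1.26-fold there (0.33 ± 0.10, edgeR adjusted p = 0.00955). Without unstressed PKCdelta replicate 3, the lowest library, the call was lost (edgeR adjusted p = 0.0975), as it was with only libraries labelled male (0.0518). The rise itself did not differ from the wild-type TAC effect by the test (0.30 ± 0.13, edgeR adjusted p = 0.281). The unstressed PKCdelta level was -0.25 ± 0.09 against wild type and was not called (edgeR adjusted p = 0.0974), though it passed without unstressed PKCdelta replicate 2 (0.0427) and with a Y-linked score as a term (0.049).

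After TAC, the combined knockout held 55.4, 60.3, 62.2 and 56.3 CPM of Ppard, all below the 67.9 CPM of the lowest wild-type TAC library. The difference was -0.27 ± 0.08 (edgeR adjusted p = 0.0414), and Ppard was the only one of the 9 members called between these 2 groups. The call failed in 12 of 19 alternatives while the sign held in all 19. It was lost when any of the 4 wild-type TAC libraries or combined TAC replicate 1 or 4 was left out (edgeR adjusted p = 0.0556 to 0.163), without both doubted libraries (0.0886) and with the sex label as a term (0.178). No step in the order of the 8 group means of Ppard, from 73.0 to 58.0 CPM, exceeded the larger SD of its neighbours.

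Pparg (chr6:115360879-115490404, plus strand) was the least abundant PPAR, with 56 to 201 reads per library. Unstressed wild-type libraries held 14.5, 7.06, 7.84 and 12.3 CPM, and replicates 1 and 4 were well above the other 2. Over the genes tested, replicates 1 and 4 were also the closest pair of their group. Their chi-square per degree of freedom was 2.24, against 6.9 to 12.7 for the other pairs. No alternative left out both, though summing them was among the alternatives. The unstressed combined knockout held 3.88, 5.28, 5.76 and 5.63 CPM, all below the lowest wild-type library, at 0.488 times the wild-type level (-1.03 ± 0.18, edgeR adjusted p = 1.1e-04). Over 19 alternatives the difference ran from -1.19 to -0.84, nearest to 0 without wild-type replicate 1, and was called in all 19. The single ablations were between, at 7.06, 8.37 and 6.66 CPM (PKCdelta, -0.51 ± 0.19, edgeR adjusted p = 0.119) and 7.37, 7.11 and 5.99 CPM (PKCepsilon, -0.63 ± 0.20, edgeR adjusted p = 0.0802). Neither was called, but both passed without wild-type replicate 2 (0.0326 and 0.0182), and the PKCepsilon difference also without wild-type replicate 3 (0.045).

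After TAC the groups met. Combined TAC libraries held 8.06, 9.51, 8.73 and 7.38 CPM of Pparg, all above the unstressed combined ones, a rise of 1.64-fold (0.71 ± 0.18, edgeR adjusted p = 0.00237). Wild-type TAC libraries held 7.85, 7.52, 6.74 and 9.33 CPM, within the range of their unstressed libraries but for replicate 3. The wild-type TAC effect was -0.42 ± 0.17 and was not called (edgeR adjusted p = 0.0605), though it passed in 6 of 19 alternatives, among them without unstressed replicate 2 (0.0105) or 3 (0.0282) and without TAC replicate 4 (0.0364). The difference between the TAC effects was 1.13 ± 0.25 (edgeR adjusted p = 0.0018), the largest of the 9 members and called in all 27 alternatives. The call of the rise in the combined knockout was lost with the sex label as a term (0.54 ± 0.22, edgeR adjusted p = 0.0531), and without both doubted libraries it was 0.65 ± 0.20 (edgeR adjusted p = 0.00988). In the order of means only the last step, to the unstressed combined knockout, exceeded the larger SD.

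PPARgamma is also expressed outside heart muscle cells, and marker lists of other cell types are given beside it. Of 8 endothelial markers, 5 were lower in the unstressed combined knockout than in wild type and 5 rose there with TAC. Their summed level was 992 to 1135 CPM in unstressed combined, 1319 to 1378 in unstressed wild type and 1201 to 1395 in combined TAC libraries. Of 6 mural cell markers, 3 were lower unstressed and 4 rose with TAC, with sums of 629 to 779, 812 to 882 and 671 to 804 CPM in the same order. Of 7 macrophage markers, 2 were higher unstressed and 1 fell with TAC, with sums of 270.1 to 288, 218 to 244 and 244 to 274 CPM. Of 3 Schwann cell markers, 2 were tested and 1 was lower unstressed, with sums of 2.71 to 4.26 CPM in unstressed combined, at least 6.16 in unstressed wild type and 1.86 to 4.71 in combined TAC libraries. White adipocyte markers, of which 2 of 6 were tested, had none called between unstressed combined and wild type. Their sums were 0.277 to 5.27 and 2.52 to 9.64 CPM, and Lep had no read in 3 of 4 combined and 2 of 4 wild-type libraries. In the wild-type libraries with high Pparg, replicates 1 and 4, this sum was 2.52 and 3.28 CPM, under the 7.74 and 9.64 of the other 2. Those replicates were also the ones with 51.6 and 59.6 CPM of summed Y-linked transcripts, where the other 2 had 0 and 0.201, although all 4 are labelled male. The part of these markers and of sex in the Pparg result was not tested beyond the alternatives above. With a Y-linked score as a term the unstressed difference was -1.02 ± 0.17. In bulk tissue, fewer cells of a type and less RNA per cell cannot be told apart.

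**Figure D2:**
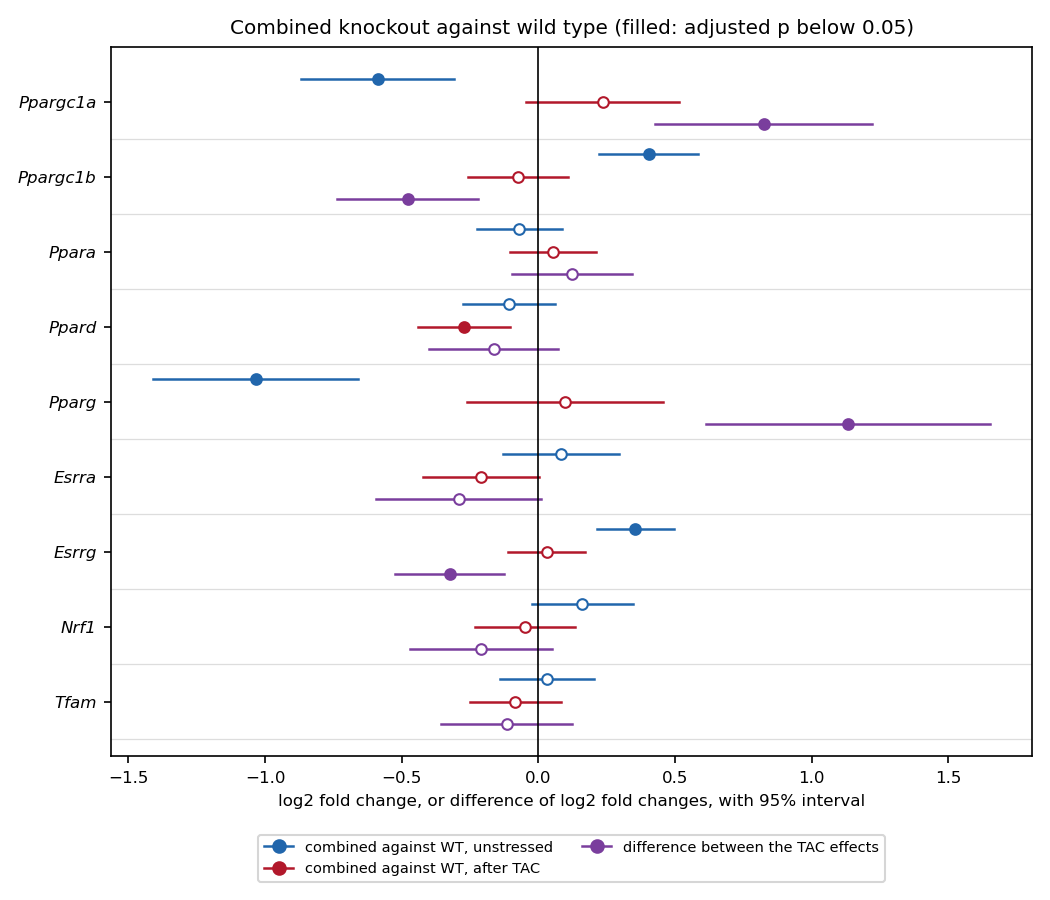
Log2 fold change of each member between the combined knockout and wild type, unstressed (blue) and after TAC (red), and the difference between the TAC effects of these genotypes (purple), with 95% intervals and filled points for an adjusted p below 0.05. Ppargc1a and Pparg are lower, and Ppargc1b and Esrrg higher, in the unstressed combined knockout, while after TAC only Ppard passes the test. The 3 comparisons share libraries.

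Esrra (chr19:6910977-6922048, minus strand) encodes ERRalpha. A share of 3.26% of its exon bases overlaps Trmt112 on the other strand, and in these unstranded libraries reads there cannot be assigned to either gene. Wild-type libraries held 174, 178, 159 and 156 CPM unstressed and 169, 153, 166 and 149 after TAC, with overlap (-0.07 ± 0.10, edgeR adjusted p = 0.665). In the combined knockout 179, 164, 192 and 171 CPM became 120.2, 114, 151 and 165, where TAC replicates 1 and 2 were low and replicate 4 lay within the unstressed range. This was called as a fall to 0.78 times (-0.36 ± 0.10, edgeR adjusted p = 0.0065). The call was lost with the sex label as a term (edgeR adjusted p = 0.0991) and with only libraries labelled male (0.324), and without both doubted libraries it was -0.28 ± 0.11 (0.039). The difference from the wild-type TAC effect was not called (-0.29 ± 0.15, edgeR adjusted p = 0.149), but passed without combined TAC replicate 4 (0.0408).

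The PKCdelta ablation held 122, 162 and 113 CPM of Esrra unstressed, with replicate 2 well above the others, and 163, 164 and 162 after TAC, a span of under 2 CPM. Its TAC effect was 0.30 ± 0.12 (edgeR adjusted p = 0.0651) and its unstressed difference from wild type -0.33 ± 0.11 (0.0843). Neither was called. Without unstressed replicate 2 both passed, at 0.47 (edgeR adjusted p = 0.00521) and -0.51 (0.0124). The TAC effect passed in 6 of 17 alternatives, also with the sex label as a term, alone (0.0475) or without both doubted libraries (0.0455), with a Y-linked score (0.0341), with DESeq2 (DESeq2 adjusted p = 0.0496) and without both doubted libraries (edgeR adjusted p = 0.0415). The unstressed difference passed in 3 of 18, also with a Y-linked score (0.0499) and with only libraries labelled male (0.0484). These 2 comparisons share the unstressed PKCdelta libraries. The PKCepsilon knockout moved from 123, 147 and 149.9 to 161, 175, 139.9 and 152 CPM, with overlap (0.16 ± 0.11, edgeR adjusted p = 0.295). Its unstressed libraries all lay below those of unstressed wild type, without a call (-0.25 ± 0.11, edgeR adjusted p = 0.263). Of the 7 steps in the order of group means, only that between the PKCepsilon knockout after TAC and unstressed exceeded the larger SD.

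Esrrg (chr1:187608510-188214885, plus strand) encodes ERRgamma, abundant in tissues of high oxidative capacity. Its libraries agreed closely within groups, with a median coefficient of variation of 4.88% over the 8 groups. All 3 ablated genotypes were higher than wild type when unstressed. Wild-type libraries held 41.5, 35.5, 38.9 and 40.9 CPM, below all libraries of the PKCdelta ablation (48.4, 46.9 and 48.2), the PKCepsilon knockout (50.2, 51.1 and 52.8) and the combined knockout (52.0, 50.4, 51.2 and 46.8). The log2 differences were 0.29 ± 0.07 (edgeR adjusted p = 0.0212), 0.39 ± 0.07 (0.00261) and 0.35 ± 0.07 (3.1e-04). These 3 comparisons share the wild-type libraries. The PKCdelta call was lost without wild-type replicate 2 (0.0585) or PKCdelta replicate 1 (0.0834) or 3 (0.0889). It was also lost with the closest replicate pairs summed (0.0524). The other 2 calls held in each alternative.

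With TAC, Esrrg fell in each genotype. Wild-type TAC libraries held 35.0, 34.6, 31.1 and 35.4 CPM, with the highest, 35.4, just under the lowest unstressed library at 35.5 (-0.20 ± 0.07, edgeR adjusted p = 0.022). The PKCdelta TAC libraries held 32.5, 32.7 and 35.7 CPM (-0.51 ± 0.08, edgeR adjusted p = 3.5e-05) and the PKCepsilon ones 36.0, 36.9, 45.4 and 38.7 CPM (-0.39 ± 0.07, 2.3e-04). Combined TAC libraries held 36.7, 35.1, 33.2 and 34.0 CPM (-0.53 ± 0.07, edgeR adjusted p = 4.4e-07). In each of the 4 genotypes the highest TAC library lay under the lowest unstressed one. The wild-type call was lost without unstressed replicate 1 (0.0794) or 4 (0.069) or TAC replicate 3 (0.111). It was also lost with the closest replicate pairs summed (0.0849) and with no filter on low counts (0.0504). The other 3 calls held throughout. The fall in the combined knockout exceeded that in wild type by -0.32 ± 0.10 (edgeR adjusted p = 0.0153). The corresponding values were -0.30 ± 0.11 for the PKCdelta ablation (0.169) and -0.19 ± 0.10 for the PKCepsilon knockout (0.701), neither called, though the first passed with a Y-linked score as a term (0.0439). Without both doubted libraries the combined difference was -0.33 ± 0.11 (0.0316), and with only libraries labelled male -0.37 ± 0.14 (0.105). After TAC, wild type, the PKCdelta ablation and the combined knockout lay at 33.7 to 34.7 CPM on average, steps within their SDs. The PKCepsilon TAC libraries all lay above the wild-type TAC ones, without a call (0.21 ± 0.07, edgeR adjusted p = 0.243). The unstressed ablated groups, at 47.8 to 51.4 CPM, were separated from the rest by the largest step of the order, 8.58 CPM.

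**Figure D3:**
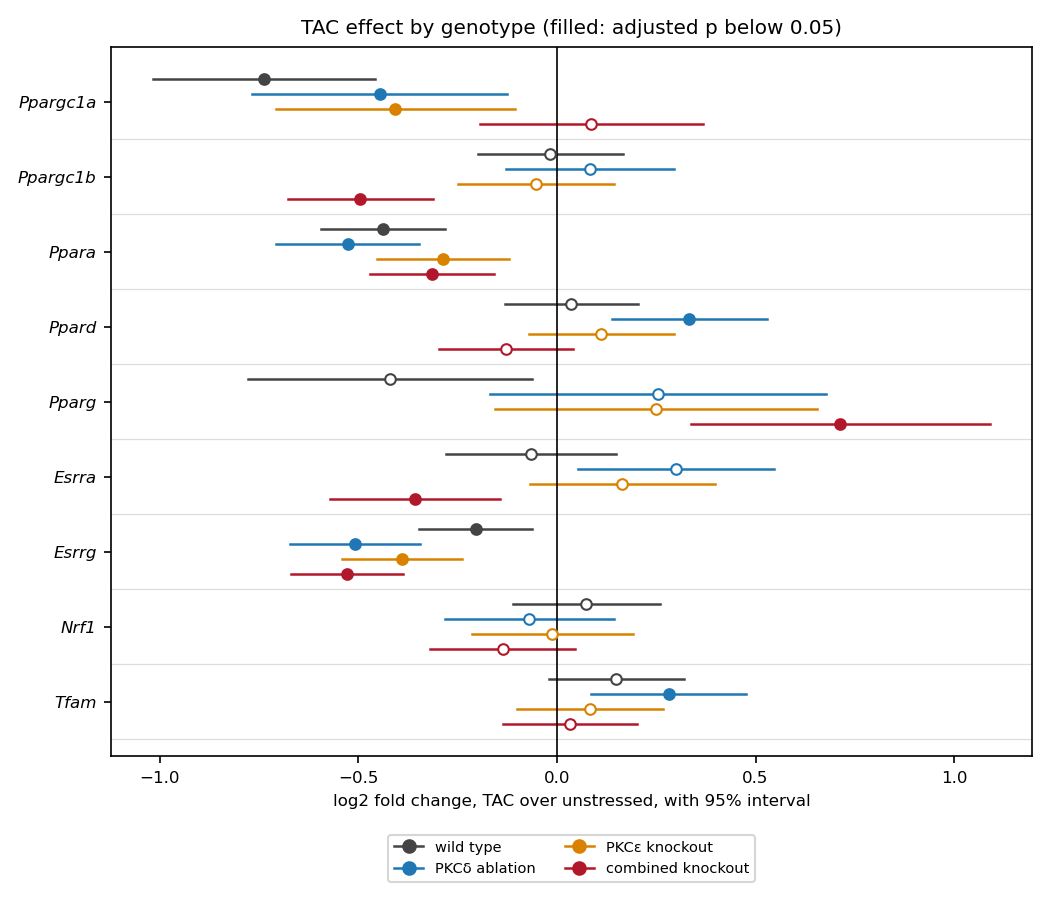
Log2 fold change with TAC of each member in each genotype, with 95% intervals and filled points for an adjusted p below 0.05. Ppara and Esrrg are filled and below 0 in all 4 genotypes, Ppargc1a in all but the combined knockout, and Ppargc1b, Pparg and Esrra are filled in the combined knockout alone.

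Nrf1 (chr6:30047985-30153458, plus strand) and Tfam (chr10:71225468-71238328, minus strand) moved least. Nrf1 group means spanned 14.2 ± 1.51 to 16.2 ± 0.768 CPM (SD, n = 4 each), a ratio of 1.14, and Nrf1 was called in none of the 13 comparisons or their alternatives. Its unstressed combined knockout libraries, at 15.7 to 17.4 CPM, lay above those of unstressed wild type, at 13.2 to 15.5. That difference was 0.16 ± 0.09 (edgeR adjusted p = 0.188). Its 4 TAC effects had 95% intervals of -0.11 to 0.26, -0.28 to 0.14, -0.21 to 0.19 and -0.32 to 0.05 in wild type, PKCdelta, PKCepsilon and combined knockout, which leaves room for a change of up to about 0.3 on the log2 scale in either direction. Tfam measured 17.5, 15.8 and 18.2 CPM in unstressed and 21.3, 21.4 and 19.9 in TAC libraries of the PKCdelta ablation, without overlap. This was a rise of 1.22-fold (0.28 ± 0.10, edgeR adjusted p = 0.0282). The call was lost without unstressed replicate 1 or 2 or TAC replicate 1 or 2 of that genotype (edgeR adjusted p = 0.0516 to 0.122). It was also lost with a Y-linked score as a term (0.106) and with the closest replicate pairs summed (0.083). In wild type Tfam ranged from 15.8 to 18.5 CPM unstressed and from 18.4 to 20.1 after TAC (0.15 ± 0.08, edgeR adjusted p = 0.161), with overlap. The rise in the PKCdelta ablation did not differ from this by the test (0.13 ± 0.13, edgeR adjusted p = 0.719). No step between neighbouring groups exceeded the larger SD for Nrf1, and only 1, from wild type after TAC to the unstressed PKCepsilon knockout, did so for Tfam. Over all 9 members, 9 of 63 such steps exceeded it, and in 4 of these the libraries of the 2 groups were apart.

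The partners of the members were taken as lists chosen with earlier results of these data known, and are described by counts beside those over all genes. Of all 13765 genes, TAC raised 2446 and lowered 2470 in wild type, 1774 and 1922 in the PKCdelta ablation, 2001 and 1974 in the PKCepsilon knockout, and 3029 and 2998 in the combined knockout. Among 9 RXRs and related receptors, TAC lowered 1 in wild type, 3 in the PKCdelta ablation, 5 in the PKCepsilon knockout and 6 in the combined knockout, and raised 0 in each. Thrb, a thyroid hormone receptor, fell in all 4, by 0.78 ± 0.12 (log2) in wild type and 0.34 ± 0.12 in the combined knockout. Rxrg, an RXR of striated muscle, had -0.24 ± 0.10 in wild type (edgeR adjusted p = 0.0679) and fell by 0.63 ± 0.10 in the combined knockout (9.5e-06). The difference between these was called (-0.40 ± 0.14, edgeR adjusted p = 0.0401). Rxra, the main RXR partner in heart, had -0.13 ± 0.07 in wild type (0.128) and -0.46 ± 0.07 in the combined knockout (1.6e-06), with a called difference of -0.33 ± 0.09 (edgeR adjusted p = 0.00885). Nr1d1, a clock receptor, had 0.15 ± 0.15 and -0.71 ± 0.15 in those genotypes. The median over the 9 genes was -0.001 in wild type and -0.342 in the combined knockout, against -0.003 and 0.002 over all genes.

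Of 17 coactivators and corepressors, TAC lowered 9 in wild type (median -0.199), and lowered 6, 8 and 10 in the PKCdelta, PKCepsilon and combined genotypes. The numbers that TAC raised are not given for this list. Ncoa6 and Ncoa2, coactivators of nuclear receptors, fell in all 4, by 0.48 ± 0.06 and 0.32 ± 0.06 in wild type. Ep300, a histone acetyltransferase that joins PGC-1alpha, also fell in all 4 (-0.39 ± 0.07 in wild type, edgeR adjusted p = 1.3e-04). Prkaa2, the catalytic AMP kinase subunit of muscle, fell in wild type (-0.42 ± 0.08) and both single ablations, and in the combined knockout had -0.16 ± 0.07 (edgeR adjusted p = 0.0801).

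Among 14 tested genes that work with NRF1 or express mitochondrial DNA, TAC lowered 5 and raised 1 in wild type, 5 and 1 in the PKCdelta ablation, 4 and 2 in the PKCepsilon knockout and 6 and 1 in the combined knockout. Gabpa, which encodes the DNA-binding subunit of the respiratory factor NRF2, fell by 0.43 ± 0.08 in wild type (edgeR adjusted p = 2.3e-04), by 0.38 ± 0.10 in the PKCdelta ablation and by 0.41 ± 0.09 in the PKCepsilon knockout. In the combined knockout it had -0.12 ± 0.08 (0.26). Tfam was not lower after TAC by the test in any genotype. Gabpb2, which encodes a subunit that pairs with GABPA, and the mitochondrial transcription factor Tfb2m fell in all 4 (-0.39 ± 0.08 and -0.34 ± 0.09 in wild type). Ssbp1, the mitochondrial single-strand DNA binding protein, fell in wild type (-0.51 ± 0.16) and the PKCdelta ablation (-0.74 ± 0.18). The 13 protein-coding genes of mitochondrial DNA are not analysed here.

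The PPAR target list held 30 tested genes of fatty acid uptake, storage and oxidation. In wild type TAC lowered 22 and raised 1, with a median log2 fold change of -0.435. Acsl1, which activates fatty acids, fell by 0.67 ± 0.10 (edgeR adjusted p = 4.2e-06), and the oxidation enzymes Hadha, Acadm and Ech1 by 0.51 ± 0.08, 0.64 ± 0.10 and 0.67 ± 0.10. The gene that rose, named after its value was seen, was Cpt1b (0.34 ± 0.13), the muscle carnitine palmitoyltransferase. TAC lowered 12 and raised 1 in the PKCdelta ablation (median -0.265), lowered 19 and raised 0 in the PKCepsilon knockout (-0.433), and lowered 19 and raised 2, Cpt1b and Fabp4 (also named after their values were seen), in the combined knockout (-0.403). Acsl1, Hadha, Acadm and Ech1 fell in all 4 genotypes. Whether these changes are linked to that of Ppara was not tested.

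In unstressed combined knockout hearts 9 PPAR targets were lower and 2 higher than in wild type (median -0.118), against 2107 higher and 1916 lower of all genes (-0.004). The higher 2, named after their values were seen, were Ucp2 (1.58 ± 0.30), a mitochondrial carrier, and Plin2 (0.47 ± 0.08), a lipid droplet coat protein. The TAC effect differed from wild type upward for 6 targets and downward for 2 (median 0.006). Fabp4 (0.83 ± 0.15), which is also expressed in endothelial cells and adipocytes, Lpl (0.60 ± 0.13) and Cd36 (0.85 ± 0.21), the fatty acid transporter, were among the 6, chosen here after their values were seen. They moved with the endothelial marker sums given above, whose part was not tested.

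**Figure D4:**
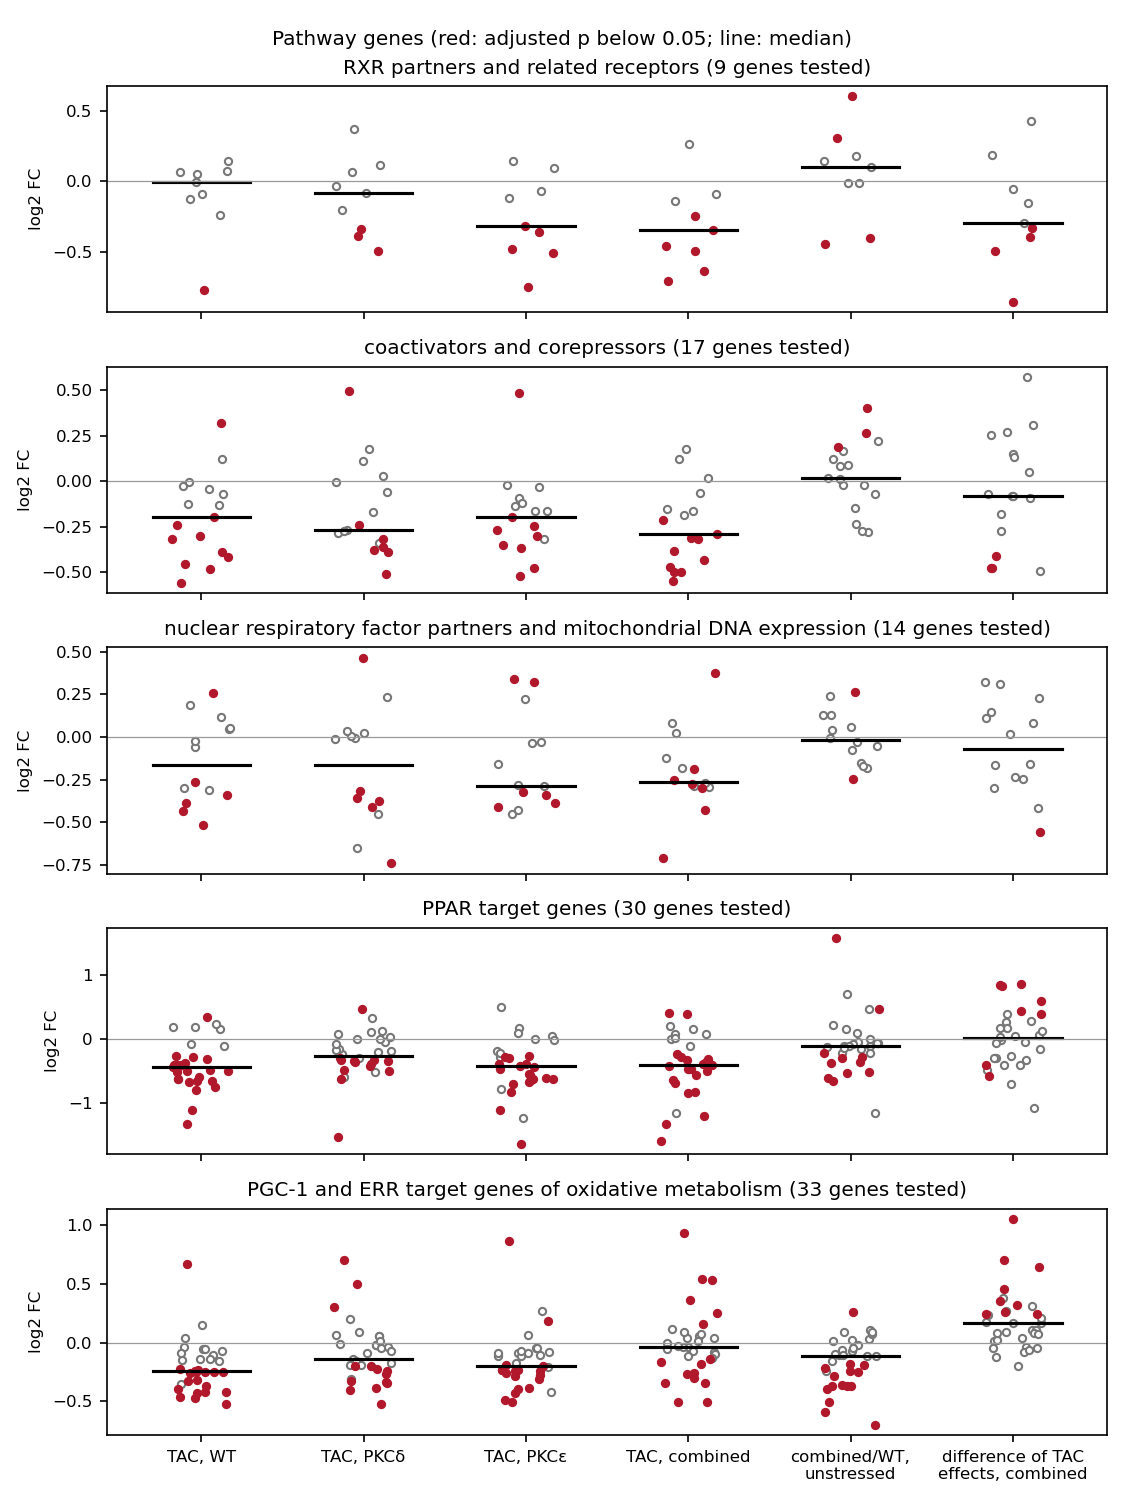
Log2 fold changes of the pathway genes in the 4 TAC comparisons, in the unstressed combined knockout against wild type, and in the difference of TAC effects between those genotypes. Each point is a gene, red where the adjusted p is below 0.05, and the line marks the median. PPAR targets lie mostly below 0 in the 4 TAC columns, and PGC-1 and ERR targets lie mostly above 0 in the last column, with a median of 0.166.

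The list of PGC-1 and ERR targets held 33 tested genes of the citric acid cycle, respiratory chain and mitochondrial fusion. In wild type TAC lowered 18 and raised 1 (median -0.246). Cs, citrate synthase, fell by 0.43 ± 0.06 (edgeR adjusted p = 8.7e-06), Sdha, a subunit of succinate dehydrogenase, by 0.42 ± 0.08, Cox5b, of cytochrome oxidase, by 0.48 ± 0.07, and Mfn1, a mitochondrial fusion protein, by 0.39 ± 0.07. The counts lowered and raised were 11 and 3 in the PKCdelta ablation, 16 and 2 in the PKCepsilon knockout and 10 and 6 in the combined knockout, whose median was -0.039. Cs, Sdha and Cox5b fell in the combined knockout too, by 0.51 ± 0.06, 0.34 ± 0.08 and 0.31 ± 0.07, whereas Mfn1 rose there (0.25 ± 0.07, edgeR adjusted p = 0.00422). Unstressed, 14 were lower and 1 higher in the combined knockout than in wild type (median -0.115), with Mfn1 at -0.37 ± 0.07 (edgeR adjusted p = 2.0e-04). The difference of TAC effects was upward for 9 and downward for 0 of 33, and over all genes upward for 1734 and downward for 1727 (median 0.004). Mfn1 (0.64 ± 0.10, edgeR adjusted p = 4.8e-05) was among the 9, and Ppargc1a too was lower unstressed and had an upward difference. Both rest on the same unstressed combined libraries. In unstressed single ablations 1 of the 33, Cox6a2, was lower with PKCdelta ablation (-0.60 ± 0.15, named after its value was seen), and 0 were called with PKCepsilon knockout.

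Cell type markers changed with TAC beside these genes. Summed levels of 8 fibroblast markers were 894 to 1010 CPM in unstressed and 1789 to 3652 in TAC wild-type libraries, and 814 to 1315 and 1961 to 3112 in the combined knockout. Of these, 4 rose in wild type and 8 in the combined knockout. Of 8 ventricular cardiomyocyte markers, 4 were lower and 2 higher after TAC in wild type, with sums of 111534 to 131069 CPM unstressed and 95663 to 113310 after TAC, and 4 lower and 1 higher in the combined knockout. The defining markers Myh6, Tnnt2 and Myl2 were detected in each library. Their part in the falls of Ppargc1a, Ppara, Esrrg and the target genes was not tested.

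Across the 29 libraries, the genes whose log2 CPM was most like that of a member, out of 10237 compared, were taken as the 3 with the highest Pearson r. They describe libraries that share groups, conditions and depth, and carry no test. Esrrg had the closest, Neo1 (r = 0.955) and Mef2a (0.937), which encodes a muscle transcription factor. Ppargc1a was most like Klhl24 (0.922), Lims1 (0.918) and Lypla1 (0.913), and Ppara like Entpd5 (0.91), Med13 and Tnrc6b (0.902 each). Esrra was nearest to Rgl2 (0.884), Ncln and Ahdc1, Ppargc1b to Dot1l (0.829), Rpap1 and Rreb1, and Ppard to Pex6 (0.822), Cbfa2t3 and Rilpl1. For Pparg the nearest was Slc35f5 (0.785), followed by Asnsd1 (0.749). Nrf1 (Dock8, 0.677) and Tfam (Dars, 0.667), the members that moved least, had the weakest likeness. Among the members themselves, Ppara was most like Esrrg (r = 0.77) and Ppargc1a most like Ppara (0.666), while Ppargc1b and Pparg had the lowest value of the 36 pairs (-0.611).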

How the data were processed

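Polyadenylated RNA of mouse hearts was sequenced in 29 single-end libraries that keep no strand. The tissue label reads whole heart, while the frozen tissue was the ventricular apex, per the labels' protocols. The authors deposited raw read counts per gene symbol, and the submitters' processing notes name TopHat2 2.0.10, Bowtie2, HTSeq, edgeR, DESeq and build mm10. Neither each tool's role nor the annotation is given in the sources used here. Rows naming no gene (8.81% to 15.05% of reads, of which reads aligned to several places were 8.01% to 14.16%) were left out. The library files and the series table held identical counts for the 23391 names they share, members included.

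Groups came from the labels. The link between libraries and animals is not stated, so the spread that p-values measure is that of these libraries and may be technical. Between replicates, chi-square divided by its degrees of freedom was at least 1.56. This is above sampling noise but does not show that libraries come from different animals. Each library was taken as 1 sample. The 4 closest pairs, at 1.56 to 2.54, were replicates 2 and 4 of the unstressed combined knockout, 1 and 4 of unstressed wild type, 1 and 2 of the PKCdelta ablation after TAC, and 1 and 2 of the unstressed PKCepsilon knockout. Other pairs of those groups had 5.16 to 15.2. Summing the 4 closest pairs was an alternative chosen after seeing the data. The main test was the quasi-likelihood F test of edgeR 4.0.16 (with R 4.3.3 and limma 3.58.1) with TMM normalization, robust dispersion, a filter by group that left 13765 genes, 8 group means in a single model of all 29 libraries (21 residual degrees of freedom), and Benjamini-Hochberg adjustment at 0.05 within each of 13 comparisons. No sex term was used, since sex-linked transcripts went against many sex labels. CPM used TMM library sizes, and RPKM the merged exon length of GENCODE vM21 basic. Positions and promoters are RefSeq's for GRCm38.p6. The script was tested on data simulated for the wild-type TAC effect. It recovered 65.1% of 1.5-fold, 87.3% of 2-fold and 96.8% of 4-fold changes, and 13 of its 175 calls were false. The simulation changed 200 of 13765 genes, while 4916 were called for TAC in wild type, so these rates need not hold there.

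The members, lists and alternatives were chosen with earlier results of these data known. Genes named were the 9 members, Prkcd and Prkce, up to 4 genes per pathway list with the smallest adjusted p for TAC in wild type, and the 3 genes most like each member whose log2 CPM (prior count 2) averaged 2 or more. Other genes of the lists, where a count was small or a gene was singled out, were named after their values were seen. Results for 2 genes that this rule or a count would name are not reported here. Alternatives were DESeq2 1.42.0, RLE normalization, no filter, the replicate number as a block, a Y-linked score or the sex label as a term, libraries labelled male alone, a fit of only the compared groups, leaving out each library singly, and leaving out the 2 libraries whose Prkce level stood apart, with or without the sex label. Figures used Python 3.11.15 and matplotlib 3.10.9.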

Additional observations from a re-analysis of the deposited data

Results flagged for a closer look

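The TAC effect differed between the combined knockout and wild type for 4 members, by edgeR's test of the difference itself: Ppargc1a (0.82, log2), Ppargc1b (-0.48), Pparg (1.13) and Esrrg (-0.32), with positive values meaning a higher TAC effect in the combined knockout. These share the libraries of both unstressed groups.

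Within groups, Ppard in unstressed combined knockout replicate 3 was 72.6 CPM, the highest of 60.1, 62.0, 72.6 and 61.4, and Nrf1 in wild-type TAC replicate 4 was 13.7 CPM, the lowest of 15.8, 15.6, 15.9 and 13.7. Each stood far from the nearest other library for the range of its group. Of 45 groups examined in this way, 2 held such a library, about what chance gives at 1 in 20.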

How the results depend on the processing

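Of 117 results (9 members in 13 comparisons), 27 were called. All 27 kept their sign in every alternative run, 14 kept the call in every alternative, and 8 results not called passed in some. The number of members called moved by over 1.5 times in these cases. For TAC in the PKCdelta ablation (5) it was 2 with only libraries labelled male and 3 with the close replicate pairs summed, and 3 to 4 with a library left out. For TAC in the combined knockout (5) it was 3 with the sex label as a term, alone or without both doubted libraries, and 3 with only libraries labelled male. For the unstressed PKCdelta ablation (1) it was 3 with a Y-linked score, 2 with only libraries labelled male, 0 with the close pairs summed and 0 to 3 with a library left out. For the unstressed PKCepsilon knockout it was 1 to 2 with a library left out. For the combined knockout against wild type after TAC (1) it was 0 with the sex label, only libraries labelled male, only the groups compared, without both doubted libraries, the same with the sex label, or the close pairs summed, and 0 to 1 with a library left out. For the difference of TAC effects it was 1 in place of 0 for the PKCdelta ablation with a Y-linked score, and 1 in place of 4 for the combined knockout with only libraries labelled male, where fewer samples remain. The cause of the other changes was not tested.

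Counts over all genes also moved. The combined knockout against wild type after TAC had 930 genes called, 122 with the sex label, 2 with only the groups compared, 1 with only libraries labelled male and 1689 with a Y-linked score. The difference of TAC effects in the combined knockout had 3461 and 922 with only libraries labelled male, and the unstressed PKCdelta ablation 739 and 248 with the close pairs summed.

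The replicate number as a block changed no member's call, and the counts per comparison stayed at 3, 5, 3 and 5 for TAC, 1, 1 and 4 unstressed, 0, 0 and 1 after TAC and 0, 0 and 4 for the differences. The numbers do not pair the libraries by any label, and over 94 same-numbered pairs the median correlation of deviations was -0.006. Reads per library were as few as 56 for Pparg, 149 for Nrf1 and 169 for Tfam.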
